A study of Mus musculus with 12 samples.

Results

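The transcripts of 10 genes, 7 matrix metalloproteinases (MMPs) and 3 tissue inhibitors of metalloproteinases (TIMPs), were followed through 4 sorted fractions of monocyte-macrophage lineage cells (Mo-Macs) from allergic mouse skin. The genes were taken by name: Mmp2, Mmp8, Mmp9, Mmp12, Mmp13, Mmp14, Mmp19, Timp1, Timp2 and Timp3. All 10 were among the 37775 genes of the count table, and all 10 passed the expression filter that left 22118 genes for testing. Cells came from the ear of wild-type (WT) BALB/c mice, males of 7 to 12 weeks by the study's methods, in which IgE-mediated chronic allergic inflammation (IgE-CAI) had been elicited. Each mouse received 300 μg of anti-TNP IgE intravenously and, a day later, 10 μg of TNP-conjugated ovalbumin into the right ear skin, so that all 4 fractions share this treatment and no unchallenged skin was included here. On day 5 post-challenge, CD11b+ leukocytes lacking Siglec-F and Ly6G were sorted on Ly6C and PD-L2. The fractions were Ly6Chi PD-L2lo classical monocytes (Classical mono), Ly6Chi PD-L2hi early monocyte-derived macrophages (Early CMDM), Ly6Clo PD-L2hi late monocyte-derived macrophages (Late CMDM) and Ly6Clo PD-L2lo Resident-like macrophages, with 3 bulk RNA-seq libraries each and 12 in all.

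MMPs are zinc-dependent endopeptidases that are made as inactive proenzymes and cleave collagens, gelatin, elastin, proteoglycans and many cytokines and surface proteins. TIMPs bind the active site of MMPs, and the balance of both groups is known to set the turnover of the extracellular matrix during skin inflammation and repair. Macrophages, neutrophils, fibroblasts and endothelial cells are all known sources of MMPs or TIMPs in skin, and each uses a different subset.

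Values below are counts per 1000000 (CPM) after trimmed mean of M-values (TMM) scaling, and folds are on the log2 scale with their standard errors (SE). A gene was called different when its p from edgeR's quasi-likelihood test, adjusted by the method of Benjamini and Hochberg over all 22118 genes, was under 0.05. Total counts were 12537178 to 19844113 per library, and every member had at least 16 counts in every library. A gene with 3 counts would have stood at 0.151 to 0.239 CPM by total counts, before TMM scaling, a limit that covers counting error only. The labels do not say whether the libraries of a fraction came from separate mice, so that p-values measure only the spread between these libraries. All 8 monocyte and macrophage markers (Csf1r, Adgre1, Cd68, Lyz2, Fcgr1, Mertk, Cd14 and Itgam) were detected above 3 counts in each library, with a summed level of 7333 to 9818 CPM in Classical mono, 2502 to 3639 CPM in Early CMDM, 6120.0 to 7171 CPM in Late CMDM and 9842 to 10777 CPM in Resident-like. Markers of other cells were also present, and 6 keratinocyte genes summed to 17096 to 27284 CPM in Early CMDM, against 1871 to 4049.9 CPM in the other fractions. Keratinocytes express some of the genes studied here, and their part in the results was not tested. In bulk samples, fewer cells of a type and less RNA per cell cannot be told apart.

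Mmp13, Mmp12 and Mmp8 lie in this order on the plus strand of chromosome 9, in the MMP gene cluster, at GRCm38 chr9:7272514-7283331, chr9:7344381-7369499 and chr9:7558456-7568485. Their sequences from 250 bases before to 50 bases after the annotated start are shown because these neighbours had 3 different patterns across the fractions, described below. The sequences are those of RefSeq for GRCm38.p6, where 8 promoters of 7 of the 10 members were found. Matches to 4 motifs, searched on both strands, are in capitals: TGANTCA, bound by AP-1 factors, TATAAA, the TATA box, TTC and GAA with any 4 bases between them, a STAT6-type site, and AGGAAG, an ETS core. None of the matches shown overlap each other. Of the 2 starts annotated for Mmp12, the downstream one is printed.
Mmp13, chr9:7272264-7272563, plus strand: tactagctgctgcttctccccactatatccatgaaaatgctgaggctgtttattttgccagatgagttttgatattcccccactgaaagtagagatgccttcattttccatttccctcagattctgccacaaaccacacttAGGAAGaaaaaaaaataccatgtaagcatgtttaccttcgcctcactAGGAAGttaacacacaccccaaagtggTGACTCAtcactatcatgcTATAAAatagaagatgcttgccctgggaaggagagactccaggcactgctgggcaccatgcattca
Mmp12, chr9:7347124-7347423, plus strand: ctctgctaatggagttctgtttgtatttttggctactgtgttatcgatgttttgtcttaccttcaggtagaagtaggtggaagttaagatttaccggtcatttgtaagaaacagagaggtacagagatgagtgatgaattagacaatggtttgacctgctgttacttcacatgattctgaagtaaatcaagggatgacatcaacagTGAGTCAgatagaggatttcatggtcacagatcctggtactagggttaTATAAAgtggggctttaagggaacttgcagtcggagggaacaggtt
Mmp8, chr9:7558179-7558478, plus strand: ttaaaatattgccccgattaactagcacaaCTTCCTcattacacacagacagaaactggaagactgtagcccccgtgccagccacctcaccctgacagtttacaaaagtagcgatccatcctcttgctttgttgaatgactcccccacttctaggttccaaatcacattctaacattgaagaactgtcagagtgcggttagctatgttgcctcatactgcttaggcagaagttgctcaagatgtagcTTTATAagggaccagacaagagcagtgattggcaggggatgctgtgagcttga
The Mmp13 window held TGACTCA 35 bases and TATAAA 16 bases before the start, and AGGAAG at 2 places. The Mmp12 window held TGAGTCA 44 bases before the start and TATAAA 4 bases after it. In the Mmp8 window the AP-1 letters were not found, and TATAAA lay on the minus strand across the RefSeq start. That start lies upstream of the GENCODE M21 gene start given above, chr9:7558456, and so does the match. The AP-1 letters were in 7.81% of the 32851 promoters of this length, TATAAA in 13.6%, the STAT6-type letters in 6.95% and AGGAAG in 35.4%. The letters TGANTCA and TATAAA were in none of the other 5 windows, which are those of the upstream start of Mmp12 and of Mmp14, Timp1, Timp2 and Timp3, and the STAT6-type letters were in none of the 8. These matches describe the letters of the windows only.

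Between Classical mono and Early CMDM, 3 of the 10 members were higher and 2 were lower in Early CMDM, where 24.2% and 20.6% of all tested genes were called in these directions and 44.9% in either. Timp3, Mmp9 and Timp2 were higher, and Mmp8 and Mmp19 were lower. From Early CMDM to Late CMDM, 5 members were higher (Mmp9, Mmp12, Timp2, Mmp13 and Mmp19) and 1 was lower (Mmp2), against 14.4% and 17.5% of all genes. From Late CMDM to Resident-like, 2 were higher (Mmp12 and Mmp9) and 3 were lower (Timp3, Timp2 and Mmp2), against 12.7% and 15.4%. The shares of all genes in either direction were 31.9% and 28.1%. In the comparisons that skip a fraction, 7 members were called each time. Against Classical mono, 5 were higher and 2 lower in Late CMDM, where 35.6% of all genes were called (18.1% higher and 17.5% lower), and 3 were higher and 4 lower in Resident-like, where 23.7% were called (10.8% higher and 12.9% lower). Resident-like against Early CMDM had 4 higher and 3 lower, beside 46.6% of all genes (21.4% higher and 25.1% lower). The median log2 fold change of the 10 members in the 3 consecutive steps was 0.24, 0.60 and -0.28, beside -0.01, 0.02 and 0.00 for all genes. These comparisons share fractions and are not independent of each other.

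TMM scaling takes most genes as unchanged, and the direction of several members depended on this. As an alternative, libraries were scaled to 10 leukocyte genes (Ptprc, Cd53, Laptm5, Coro1a, Lcp1, Itgb2, Cd52, Arhgdib, Rac2 and Cytip), which by TMM summed to 5177 to 5604 CPM in Classical mono, 1228 to 1923 CPM in Early CMDM, 2521 to 2848 CPM in Late CMDM and 4739.7 to 4862 CPM in Resident-like. This leukocyte scaling moved the median of all genes to 1.86 between Early CMDM and Classical mono, -0.85 between Late CMDM and Early CMDM and -0.81 between Resident-like and Late CMDM, and directions are given below relative to TMM. Of all tested genes, 92.4% were called higher and 1.89% lower in the first of these comparisons, 0.949% higher and 67.8% lower in the second, and 2.24% higher and 68.7% lower in the third, so that counts of calls under it are to be read against these shares. In Early CMDM against Classical mono all 10 members were then called, 9 of them higher. Under it Mmp8 was still lower in Early CMDM than in Classical mono, Mmp2 was still lower and Mmp9 still higher in Late CMDM than in Early CMDM, and Timp2 and Timp3 were still lower in Resident-like than in Late CMDM. Where a call made with TMM changed sign or was lost under it, or a call was gained, the value is given with the member or among the alternatives.

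**Figure D1:**
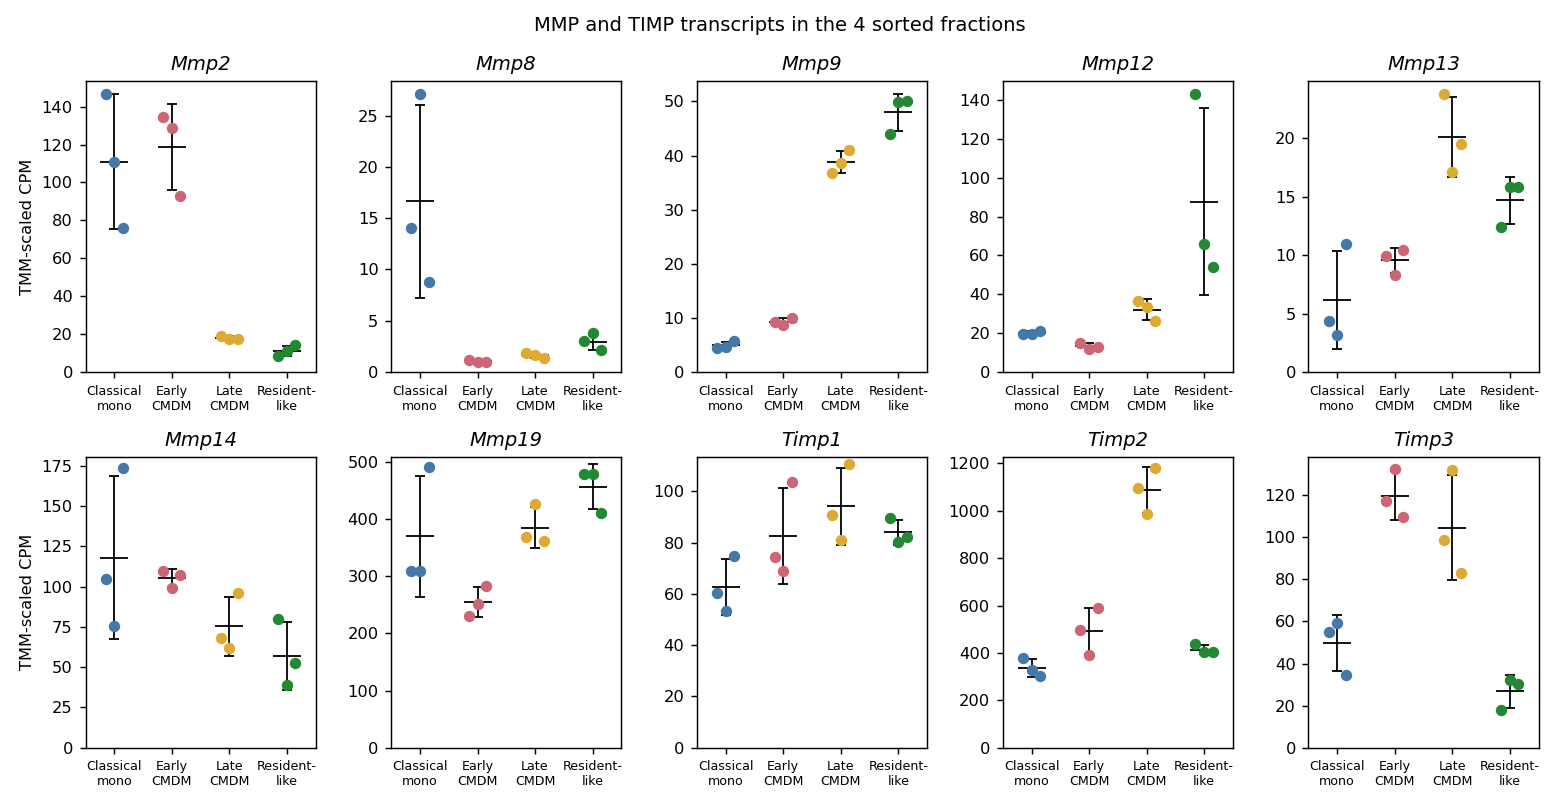
TMM-scaled CPM (vertical axis, linear, from 0) of each gene in the 4 fractions (horizontal axis). Points are libraries, and bars are the mean ± SD of 3 libraries. Timp2 stood highest in Late CMDM, at 988 to 1179 CPM, Mmp9 was higher in the 2 Ly6Clo fractions than in the 2 Ly6Chi fractions, and Mmp2 had the opposite order.

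**Figure D2:**
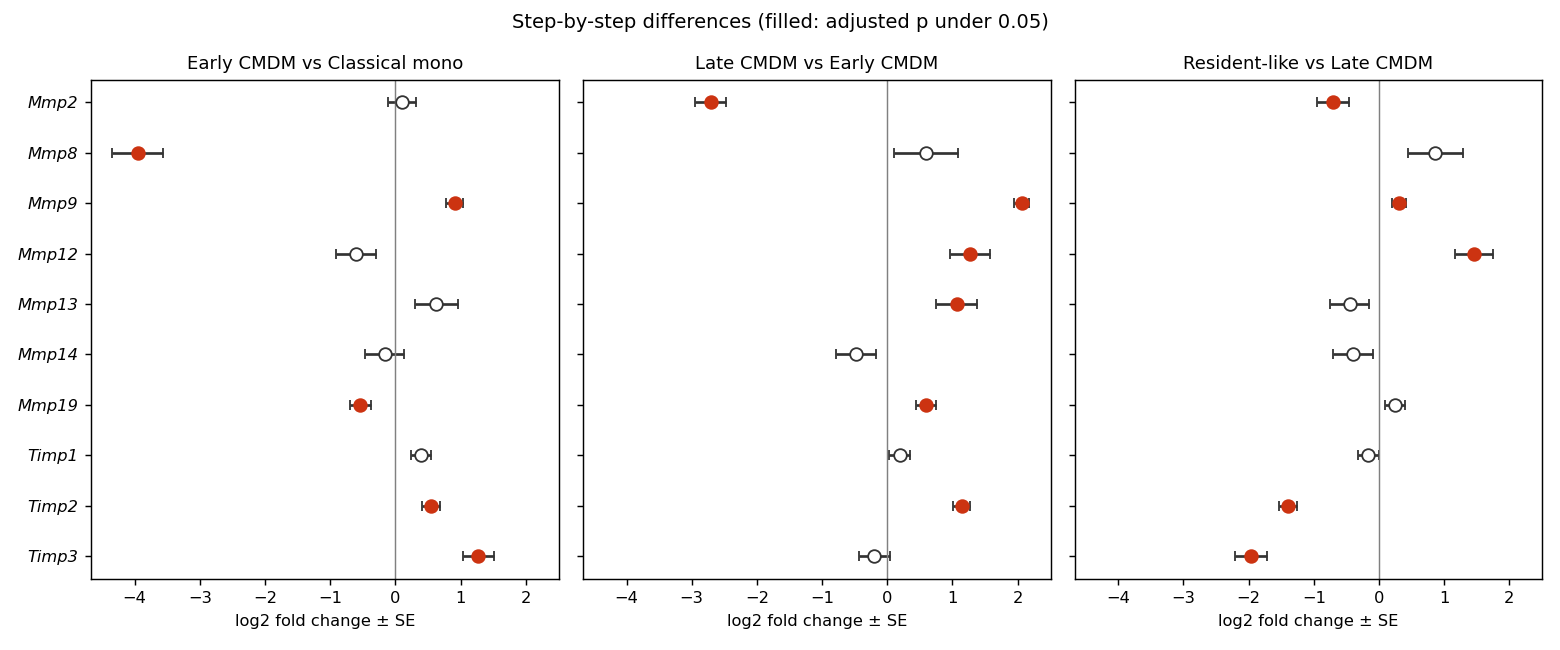
Log2 fold change (horizontal axis) with its SE for the 10 genes (vertical axis) in the 3 consecutive comparisons. Filled points passed an adjusted p under 0.05, which was the case for 5, 6 and 5 genes from left to right.

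The 2 gelatinases ran in opposite directions. Mmp9 (chr2:164940780-164955850), the gelatinase typical of leukocytes, stood at 4.49, 4.56 and 5.69 CPM in Classical mono and at 9.22, 8.60 and 10.0 CPM in Early CMDM. It reached 36.8, 38.6 and 41.0 CPM in Late CMDM and 44.0, 49.9 and 50.1 CPM in Resident-like. The libraries of neighbouring fractions did not overlap in any of the 3 steps. Mmp9 was higher by 0.91 ± 0.13 (SE, n = 3 against 3, adjusted p = 2.5e-05) in Early CMDM than in Classical mono, and by 2.06 ± 0.12 (adjusted p = 4.4e-08) in Late CMDM than in Early CMDM. The further difference in Resident-like was small, 0.31 ± 0.11 (adjusted p = 0.043), and the call was lost without any single library of Late CMDM and without Resident-like 2 or 3 or Early CMDM 1, with adjusted p of 0.0587 to 0.146. With the leukocyte scaling it turned to -0.51. Across the whole range, Resident-like exceeded Classical mono by 3.28 ± 0.12 (adjusted p = 5.3e-11).

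Mmp2 (chr8:92827291-92853420), the gelatinase made mainly by stromal cells, stood at 147, 111 and 75.8 CPM in Classical mono and at 134, 129 and 92.6 CPM in Early CMDM. In Late CMDM it was at 19.1, 17.7 and 17.5 CPM, and in Resident-like at 8.46, 11.0 and 14.0 CPM. The first pair of fractions overlapped and differed by 0.09 ± 0.21 (adjusted p = 0.75), and the sign of that difference turned to -0.12 without Classical mono 3. Under the leukocyte scaling Early CMDM was higher by 2.003 (adjusted p = 1.9e-05). Late CMDM was lower than Early CMDM by a log2 fold change of -2.71 ± 0.24 (adjusted p = 1.5e-06), with no overlap. Resident-like was lower again by -0.70 ± 0.24 (adjusted p = 0.045), a call that was lost on leaving out any of 7 libraries (adjusted p 0.0543 to 0.164), namely each Late CMDM library, Resident-like 1 or 2, Classical mono 2 or Early CMDM 2.

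Markers of fibroblasts moved together with Mmp2. The 6 fibroblast genes (Col1a1, Col1a2, Col3a1, Dcn, Lum and Pdgfra) were all detected in all fractions, with a summed level of 3254 to 5588 CPM in Classical mono, 2988 to 4205 CPM in Early CMDM, 477.5 to 498.6 CPM in Late CMDM and 276 to 358 CPM in Resident-like. None of the 6 was called between the first pair of fractions, and 6 of 6 were lower in Late CMDM than in Early CMDM. Of all genes, 44.9% were called in the former comparison and 17.5% were lower in the latter. While Mmp2 itself spanned a 17.3-fold range over the 12 libraries, Mmp2 as a share of this sum spanned 1.68-fold, from 2.33% to 3.92%. The 3 genes with the profile most like Mmp2 over 12 libraries, by Pearson's r of log2 CPM, were Meg3 (r = 0.996), Col6a1 (0.995) and Adamts5 (0.995). The part of fibroblast RNA in the Mmp2 result was not tested.

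**Figure D3:**
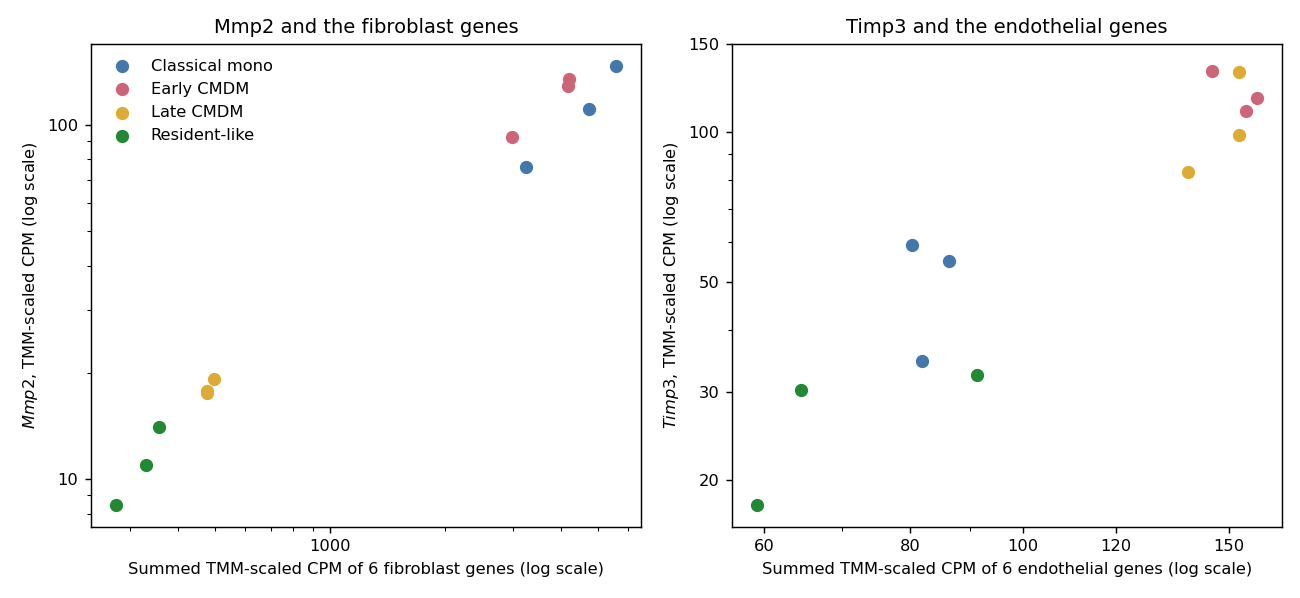
Each point is 1 library, coloured by fraction, on log axes in TMM-scaled CPM. Left, Mmp2 against the sum of 6 fibroblast genes, where Mmp2 lay at 2.33% to 3.92% of the sum in each library. Right, Timp3 against the sum of 6 endothelial genes, where Timp3 lay at 30.1% to 91.2% of the sum.

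The ratio of both gelatinases ranged more widely than either gene. Per kilobase of transcript, Mmp9 was at 0.0297 to 0.0727 of Mmp2 in Classical mono and 0.0649 to 0.105 in Early CMDM. It was at 1.87 to 2.27 times Mmp2 in Late CMDM and 3.47 to 5.04 times in Resident-like. A ratio within a library does not depend on how libraries are scaled, and those of the 2 Ly6Chi fractions lay below those of the 2 Ly6Clo fractions without overlap. Such a ratio does depend on the mix of cells in a library, and Mmp2 moved with the fibroblast genes. The part of fibroblast RNA in these ratios was not tested.

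Mmp8, the collagenase stored in neutrophil granules, was at 14.0, 27.1 and 8.81 CPM in Classical mono. In Early CMDM it was at 1.18, 1.01 and 1.01 CPM, in Late CMDM at 1.83, 1.70 and 1.35 CPM and in Resident-like at 3.02, 3.76 and 2.12 CPM. The 3 libraries of Classical mono thus stood above all 9 others, and they differed widely among themselves. Early CMDM was lower than Classical mono by -3.95 ± 0.39 (adjusted p = 1.1e-06), and without Classical mono 2 this was -3.41. Late CMDM (-3.35 ± 0.37, adjusted p = 6.4e-06) and Resident-like (-2.49 ± 0.34, adjusted p = 6.3e-05) were also lower than Classical mono. Resident-like was higher than Early CMDM by 1.47 ± 0.44 (adjusted p = 0.013), a call lost without Resident-like 2 (adjusted p = 0.0565) and a difference of -0.20 with the leukocyte scaling.

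Neutrophil markers did not share 1 pattern. Of 8 such genes, Ly6g had 7, 3 and 3 counts in Classical mono and was at 0 in the other 9 libraries, and the sum of the list was 87.1 to 102 CPM in Classical mono, 75.2 to 84.5 CPM in Early CMDM, 111 to 137 CPM in Late CMDM and 113 to 121 CPM in Resident-like. This sum was mostly Csf3r, which monocytes also express (means of 79.4, 54.9, 105 and 63.6 CPM in the same order), and in Resident-like also Retnlg (43.9 CPM). Ltf, like Ly6g and Mmp8, had its highest mean in Classical mono (0.234 CPM), and S100a9 in Early CMDM (10.4 CPM). The levels of Ltf and Ly6g were close to that of 3 counts, unlike those of Mmp8. Mmp8 ranged over 26.7-fold across the 12 libraries, and as a share of the neutrophil sum over 22.1-fold. Transcripts of the granule proteases of neutrophils were scarce. Prtn3 was at 2.22 to 3.68 CPM in Classical mono and 0.371 to 1.20 CPM in Early CMDM, and was lower there by -1.84 ± 0.35 (adjusted p = 0.00046), or level with Classical mono with the leukocyte scaling (0.03), whereas Elane had too few counts to be tested. The 5 T cell genes were higher in Classical mono, at 84.6 to 127 CPM against 11.5 to 23.5 CPM elsewhere. As a share of the T cell sum Mmp8 ranged over 4.14-fold, from 5.84% to 24.2%. The part of neutrophils or T cells in the Mmp8 result was not tested. The genes whose profiles were most like Mmp8 were Ifitm6 (r = 0.985), Fpr2 (0.978) and Morrbid (0.975).

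Mmp13, the main interstitial collagenase of the mouse, had another course. It stood at 4.37, 3.19 and 10.9 CPM in Classical mono and at 9.90, 8.35 and 10.4 CPM in Early CMDM, which overlapped. It was at 23.8, 17.1 and 19.5 CPM in Late CMDM and at 12.4, 15.8 and 15.8 CPM in Resident-like. Late CMDM was thus the highest fraction and its libraries lay above all the others. Mmp13 was higher in Late CMDM than in Early CMDM by 1.07 ± 0.31 (adjusted p = 0.019), a call lost without Early CMDM 2 or Late CMDM 1 (adjusted p 0.0902 and 0.0709) and with the leukocyte scaling (0.21, adjusted p = 0.54). Against Classical mono the difference was 1.70 ± 0.32 (adjusted p = 0.001), and Classical mono 3 decided its size, since it was 2.41 without that library. Resident-like exceeded Classical mono by 1.25 ± 0.32 (adjusted p = 0.012), which was 1.96 without Classical mono 3 and not called without Classical mono 1 (adjusted p = 0.0573). The difference of Early CMDM from Classical mono, 0.63 ± 0.33 (adjusted p = 0.14), became 1.35 with an adjusted p of 6.3e-05 without Classical mono 3, and 2.50 (adjusted p = 4.5e-07) with the leukocyte scaling. Resident-like was not called against Late CMDM with TMM (-0.45 ± 0.31, adjusted p = 0.31), but was called lower with the leukocyte scaling (-1.26, adjusted p = 0.0012).

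Mmp12, the macrophage elastase, was highest in Resident-like. Its level was 19.5, 19.5 and 21.3 CPM in Classical mono, 14.8, 11.6 and 13.0 CPM in Early CMDM and 36.6, 33.3 and 26.1 CPM in Late CMDM. Resident-like libraries had 143, 65.9 and 54.2 CPM, the largest spread of any fraction for this gene. No pair of fractions overlapped. The rise from Early CMDM to Late CMDM was 1.28 ± 0.31 (adjusted p = 0.0066) and that from Late CMDM to Resident-like 1.46 ± 0.29 (adjusted p = 0.0025). Scaled to the leukocyte genes, both missed the threshold, at 0.41 and 0.63 (adjusted p 0.21 and 0.056). The second was 0.91 ± 0.14 (adjusted p = 0.00036) without Resident-like 1, the highest library, and missed the threshold when only the 6 libraries of both fractions were fitted (adjusted p = 0.084). Early CMDM differed from Classical mono by -0.61 ± 0.31 (adjusted p = 0.13), and by -0.61 ± 0.14 (adjusted p = 0.0024) without Resident-like 1, which is part of the shared estimate of the spread. Likewise, Late CMDM differed from Classical mono by 0.67 ± 0.30 (adjusted p = 0.10), and this was called without Resident-like 1 or 3 (adjusted p 0.0011 and 0.0373) and with the leukocyte scaling (1.68, adjusted p = 7.8e-05). That scaling turned the difference of Early CMDM from Classical mono to 1.27. The sum of 6 dendritic cell genes was also highest in Resident-like, at 933 to 1239 CPM against 156 to 269 CPM in the other fractions. Cd207 and Epcam, which Langerhans cells express, made up most of that sum, with means of 819 and 219 CPM, whereas Flt3 was highest in Classical mono (68.9 CPM against 27.0 CPM in Resident-like) and Ccr7 did not differ between these fractions beyond its spread (35.2 and 30.6 CPM). Of the 6, 4 were higher in Resident-like than in Late CMDM (all genes 12.7%). Against Classical mono, 2 were higher and 1 lower in Resident-like (all genes 10.8% and 12.9%). The part of such cells in the Mmp12 result was not tested. As a share of the sum of dendritic cell genes Mmp12 ranged over 5.35-fold across the libraries, against 12.3-fold for its own CPM. Its share of the monocyte and macrophage sum ranged over 7.32-fold. Within Resident-like the dendritic cell sum was at 933, 1163 and 1239 CPM in libraries 1 to 3, the reverse of the order of Mmp12. The profiles nearest to Mmp12 were those of Etv3 (r = 0.965), Siah2 (0.959) and Gm48786 (0.956).

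Other genes of the cluster on chromosome 9 had yet other patterns. Mmp3 and Mmp10, the stromelysins that lie between Mmp12 and Mmp8, had their highest levels in Early CMDM. Mmp3 (named with Mmp10 and Mmp1b for its place in the cluster) had 22.2, 16.6 and 9.87 CPM in Classical mono, 35.8, 30.5 and 24.7 CPM in Early CMDM, 1.99, 3.10 and 9.10 CPM in Late CMDM and 2.32, 2.79 and 5.36 CPM in Resident-like. It was lower in Late CMDM than in Early CMDM by -2.67 ± 0.47 (adjusted p = 0.001), and Mmp10, at 0.243 to 2.72 CPM over all libraries, by -2.34 ± 0.34 (adjusted p = 7.1e-05). In the same step 6 of 6 fibroblast genes and 6 of 6 keratinocyte genes were lower, beside 17.5% of all genes. The median log2 fold changes of these lists were -2.99 and -2.62. The part of fibroblasts and keratinocytes in the Mmp3 and Mmp10 results was not tested. Mmp1b overlaps the 3′ end of Mmp12 on the minus strand and had no more than 0.57 CPM in any library. Within this one cluster, then, the fraction with the highest mean was Classical mono for Mmp8, Early CMDM for Mmp3 and Mmp10, Late CMDM for Mmp13 and Resident-like for Mmp12. With TMM, Mmp13 was not called between Late CMDM and Resident-like. Nor was Mmp3 called between Early CMDM and Classical mono (0.91, adjusted p = 0.10).

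**Figure D4:**
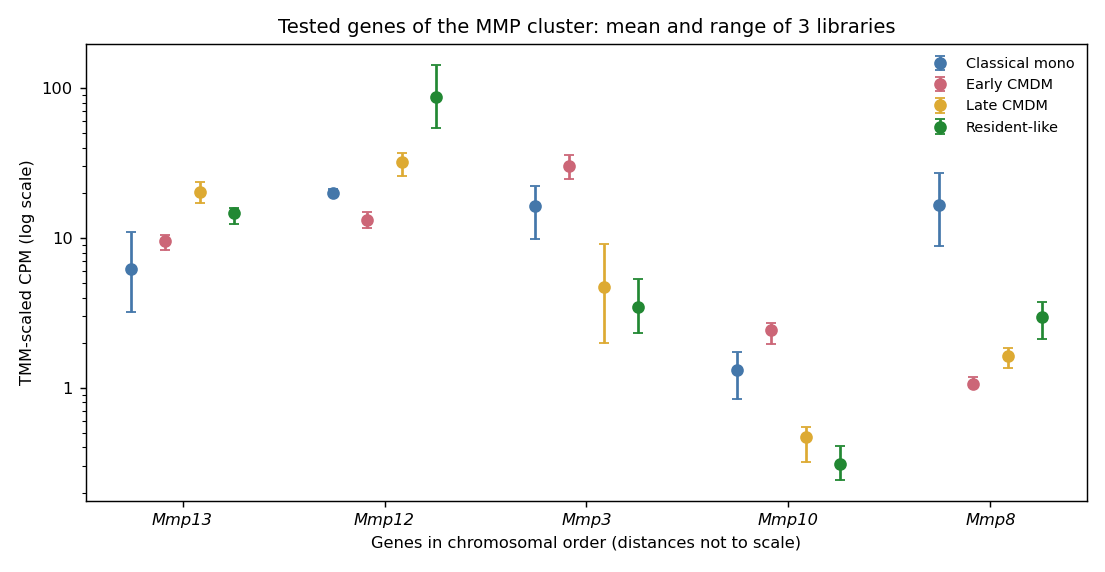
Mean TMM-scaled CPM (vertical log axis) of the 5 MMP genes described here from the cluster on chromosome 9, in chromosomal order on the horizontal axis with distances not to scale. Bars are the range of 3 libraries. Mmp12 was highest in Resident-like, at 54.2 to 143 CPM, and Mmp8 in Classical mono, at 8.81 to 27.1 CPM.

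Mmp14 (chr14:54431612-54445364) encodes a membrane-anchored collagenase that, together with TIMP2, activates the Mmp2 proenzyme at the cell surface. It stood at 105, 75.5 and 174 CPM in Classical mono and at 109.5, 99.0 and 107 CPM in Early CMDM. In Late CMDM it was at 68.0, 61.8 and 96.3 CPM, and in Resident-like at 79.8, 38.9 and 52.3 CPM. Libraries of Classical mono spread widely and overlapped those of every other fraction. None of the 3 consecutive steps was called, with log2 fold changes of -0.16 ± 0.30, -0.48 ± 0.31 and -0.40 ± 0.31. When scaled to leukocyte genes, all 3 were called, at 1.72, -1.37 and -1.22, the first with the opposite sign. Resident-like was lower than Classical mono by -1.05 ± 0.31 (adjusted p = 0.027) and than Early CMDM by -0.88 ± 0.31 (adjusted p = 0.034). The first call was lost on leaving out any of 6 libraries, with adjusted p of 0.0548 to 0.112, namely Classical mono 1 or 3, Early CMDM 2 or 3 and Resident-like 2 or 3, and with the leukocyte scaling (-0.86, adjusted p = 0.06). The second was lost on leaving out Classical mono 1, any Early CMDM library or Resident-like 2 or 3, with adjusted p of 0.0503 to 0.115.

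Mmp19 (chr10:128790910-128800824), a protease of basement membrane proteins that myeloid cells are known to express, was the most abundant MMP transcript in all 12 libraries, also per kilobase. It was at 309.9, 309 and 492 CPM in Classical mono and at 230.0, 251 and 283 CPM in Early CMDM. It was at 369, 426 and 361 CPM in Late CMDM and at 479.6, 479 and 411 CPM in Resident-like. The lowest fraction was therefore Early CMDM, with no overlap with any other fraction. Early CMDM was lower than Classical mono by -0.54 ± 0.16 (adjusted p = 0.011), a call lost without Classical mono 3 (-0.28, adjusted p = 0.0637) or Early CMDM 1 (adjusted p = 0.0626). Late CMDM was higher than Early CMDM by 0.60 ± 0.16 (adjusted p = 0.0084), with an adjusted p of 0.0509 without Early CMDM 1, and Resident-like by 0.84 ± 0.16 (adjusted p = 0.0004). With the leukocyte scaling these 3 differences were 1.34, -0.26 and -0.84, so that each changed sign. Classical mono, Late CMDM and Resident-like overlapped and were not called against each other, but without Classical mono 3 both Late CMDM (0.32, adjusted p = 0.045) and Resident-like (0.56, adjusted p = 0.0018) exceeded Classical mono. Late CMDM also did so with the leukocyte scaling (1.08, adjusted p = 9.2e-06).

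Among the inhibitors, Timp2 (chr11:118301069-118355740, minus strand), which binds pro-MMP2 and assists MMP14 in its activation, was the most abundant member by CPM in each Early CMDM and Late CMDM library. It stood at 379, 329.6 and 305 CPM in Classical mono, at 498, 393 and 588 CPM in Early CMDM, at 1097, 988 and 1179 CPM in Late CMDM and at 437, 402 and 403 CPM in Resident-like. The libraries of Late CMDM lay far above the rest. Timp2 was higher by 0.55 ± 0.13 (adjusted p = 0.0034) in Early CMDM than in Classical mono and by 1.14 ± 0.14 (adjusted p = 8.8e-06) in Late CMDM than in Early CMDM, the latter being 0.30 (adjusted p = 0.099) with the leukocyte scaling. It was then lower in Resident-like by -1.39 ± 0.14 (adjusted p = 1.6e-06), to a level that differed from Early CMDM by -0.25 ± 0.13 (adjusted p = 0.14) and from Classical mono by 0.29 ± 0.13 (adjusted p = 0.14). The former difference was called without Early CMDM 2 (-0.39, adjusted p = 0.02), and both were called with the leukocyte scaling (-1.91 and 0.47). The profiles nearest to Timp2 were those of Tceal9 (r = 0.987), Nacc2 (0.982) and Gprc5b (0.976).

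Timp3 (chr10:86300372-86349506), the inhibitor that binds to the matrix and also blocks ADAM17, was highest in the CMDM fractions. It was at 55.0, 59.3 and 34.6 CPM in Classical mono, at 117, 132 and 109.8 CPM in Early CMDM, at 98.7, 132 and 82.9 CPM in Late CMDM and at 17.8, 32.4 and 30.3 CPM in Resident-like. The CMDM fractions overlapped each other and lay above both others. Timp3 was higher by 1.27 ± 0.24 (adjusted p = 0.00064) in Early CMDM than in Classical mono, differed by -0.20 ± 0.23 (adjusted p = 0.57) between both CMDM fractions, or by -1.08 (adjusted p = 0.0076) with the leukocyte scaling, and was lower by -1.97 ± 0.25 (adjusted p = 5.6e-05) in Resident-like than in Late CMDM. Resident-like was also below Classical mono, by -0.89 ± 0.24 (adjusted p = 0.016), and this call was lost without Classical mono 1 or 2 or Resident-like 1 (adjusted p 0.0526 to 0.0656) and with the leukocyte scaling (-0.70, adjusted p = 0.15). The 6 endothelial genes, all detected in every fraction, summed to 80.3 to 86.4 CPM in Classical mono, 145 to 159 CPM in Early CMDM, 138 to 153 CPM in Late CMDM and 59.1 to 91.3 CPM in Resident-like. Of these 6, 5 were higher and 1 (Kdr, means of 11.9 and 6.36 CPM) was lower in Early CMDM than in Classical mono, and 4 were lower and 1 (Vwf, 5.97 and 12.7 CPM) was higher in Resident-like than in Late CMDM. Of all genes, 24.2% were higher and 20.6% lower in the former comparison, and 15.4% lower and 12.7% higher in the latter. Timp3 spanned a 7.45-fold range over the libraries, and its share of the endothelial sum a 3.03-fold range. The 4 pericyte and smooth muscle genes (Rgs5, Myh11, Cspg4 and Pdgfrb) summed to 8.85 to 11.4 CPM in Classical mono and 44.3 to 49.8 CPM in Early CMDM. Their sum was 10.9 to 15.6 CPM in Late CMDM and 8.19 to 30.8 CPM in Resident-like, and the Timp3 share of it ranged over 9.20-fold. The profiles nearest to Timp3 were those of Nfe2l3, Gm6557 and Ptn (r = 0.982 for each). The part of endothelial or pericyte RNA in the Timp3 result was not tested.

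Timp1 (chrX:20870166-20874735), an inhibitor induced by many inflammatory signals, varied least, over a 2.08-fold range across the 12 libraries. It was at 60.3, 53.2 and 74.7 CPM in Classical mono, at 74.4, 69.1 and 104 CPM in Early CMDM, at 90.6, 81.2 and 111 CPM in Late CMDM and at 89.7, 80.2 and 82.0 CPM in Resident-like. Neighbouring fractions overlapped in each of the 3 steps. Timp1 was called in 1 of the 6 comparisons, being higher in Late CMDM than in Classical mono by 0.59 ± 0.16 (adjusted p = 0.009), and that call was lost without Late CMDM 3 (0.46, adjusted p = 0.0558). Its difference between Early CMDM and Classical mono, 0.39 ± 0.16, narrowly missed the threshold (adjusted p = 0.055), and it passed without Classical mono 3, Early CMDM 2 or Late CMDM 3 (adjusted p 0.0148 to 0.0467). Resident-like differed from Classical mono by 0.42 ± 0.16 (adjusted p = 0.069), with an adjusted p of 0.019 without Classical mono 3 and of 0.0245 without Early CMDM 3. Under the leukocyte scaling these differences were 2.24 and 0.61 and both were called, and Resident-like was lower than Late CMDM by -0.98 (adjusted p = 1.0e-05).

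Several of these spreads came from the same library. Among the Classical mono libraries, the third had the highest level of Mmp9, Mmp12, Mmp13, Mmp14, Mmp19 and Timp1 and the lowest of Mmp2, Mmp8, Timp2 and Timp3. Of the marker sums given above, those of fibroblast, keratinocyte, T cell and dendritic cell genes were also lowest in this library, at 3254, 1871, 84.6 and 170 CPM. Those of monocyte and macrophage, neutrophil, endothelial, and pericyte and smooth muscle genes lay between those of the other libraries. The sum of the leukocyte genes was highest, at 5604 CPM. These are orders of values within 1 fraction and were not tested.

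To compare levels between genes, CPM was divided by the length in kilobases of the longest coding transcript in GENCODE M21, which ranged from 883 bases for Timp1 to 4722 bases for Timp3. On this scale Mmp19, Timp1 and Timp2 together made up most of the summed level of the 10 transcripts in each library. Timp2 took 47.2% to 50.4% of the sum in Late CMDM and 19.9% to 34.7% in the other fractions. Mmp19 took 24.8% to 35.1% in Classical mono and 31.2% to 34.8% in Resident-like, against 16.8% to 22.2% in both CMDM fractions. The share of Mmp2 was 5.97% to 13.0% in the Ly6Chi fractions and 0.610% to 1.18% in the Ly6Clo fractions, while that of Mmp12 was 3.88% to 8.80% in Resident-like and at most 1.73% elsewhere.

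**Figure D5:**
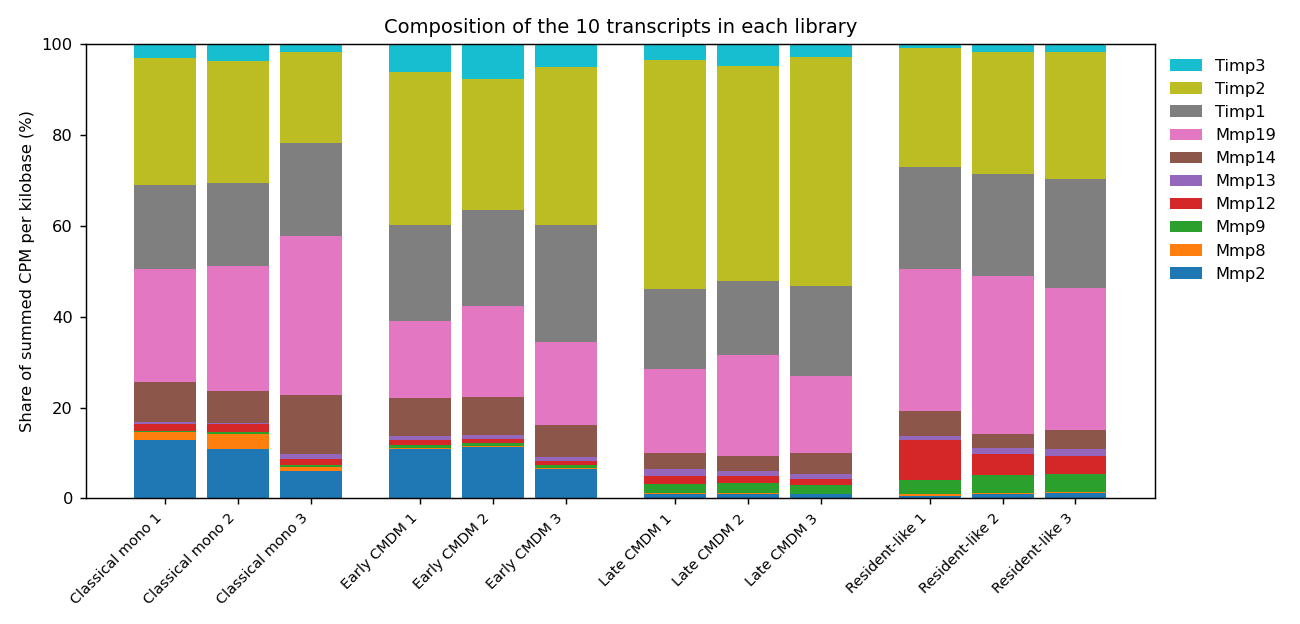
Share of each of the 10 transcripts (vertical axis, %) in their summed CPM per kilobase, in each library (horizontal axis). Timp2 occupied 47.2% to 50.4% of the bar in Late CMDM libraries, and Mmp2 narrowed from 5.97% to 13.0% in the Ly6Chi fractions to 1.18% or less in the Ly6Clo fractions.

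The summed level of the 7 MMP transcripts relative to that of the 3 TIMP transcripts was lowest in Late CMDM. This ratio per kilobase was 1.02 to 1.37 in Classical mono, 0.526 to 0.733 in Early CMDM, 0.368 to 0.462 in Late CMDM and 0.861 to 1.02 in Resident-like. The 3 libraries of Late CMDM did not overlap with those of any other fraction. Mmp14 relative to Timp2 had its lowest values there as well, 0.0710 to 0.0936, against 0.262 to 0.653 in Classical mono, 0.209 to 0.289 in Early CMDM and 0.111 to 0.209 in Resident-like. Mmp9 relative to Timp1 was 0.0207 to 0.0238 in Classical mono and 0.0268 to 0.0346 in Early CMDM, and it was 0.103 to 0.132 in Late CMDM and 0.137 to 0.173 in Resident-like. With the union of all annotated exons as length, the summed ratio was 0.335 to 0.439 in Late CMDM and at least 0.478 in every other library. These ratios are of transcripts, not of enzyme activity, and were not tested. They also depend on the mix of cells in a library, and the part of other cells in them was not tested.

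Beyond the 10 genes, 17 further MMP and TIMP family members were listed, of which 16 were in the table and 11 were tested. With TMM, of the 11, 4 were higher and 1 was lower in Early CMDM than in Classical mono, 2 were higher and 5 lower in Late CMDM than in Early CMDM, and 1 was higher and 3 were lower in Resident-like than in Late CMDM. The shares of all genes in these directions were 24.2% and 20.6%, 14.4% and 17.5%, and 12.7% and 15.4%. Scaled to the leukocyte genes, 0 were higher and 8 lower in the second step, and 1 was higher and 6 lower in the third. Mmp25, a membrane-anchored MMP of leukocytes, was the one that was higher in Resident-like, at 34.1, 26.8 and 34.5 CPM against 9.24, 8.75 and 11.0 CPM in Late CMDM (1.72 ± 0.16, adjusted p = 7.9e-07). In Early CMDM it was at 4.70, 3.98 and 5.00 CPM, below the 7.15 to 10.4 CPM of Classical mono, although the leukocyte scaling put it 0.88 above. Mmp15, a membrane-type MMP, was highest in Early CMDM at 9.18 to 13.0 CPM and was above Classical mono by 1.98 ± 0.26 (adjusted p = 1.4e-05). Mmp28, named after its values were seen, was at 9.77 to 10.7 CPM in Early CMDM and at most 2.22 CPM elsewhere, a difference of 2.51 ± 0.28 from Classical mono (adjusted p = 2.1e-06). Mmp28 and Mmp15 thus stood highest in the fraction in which keratinocyte genes were highest, and the part of keratinocyte RNA was not tested. Mmp23 was at 6.71 to 15.2 CPM in both Ly6Chi fractions and 0.431 to 2.23 CPM in the Ly6Clo fractions, the order that Mmp2 and the fibroblast genes had. When scaled to leukocyte genes, all 11 were higher in Early CMDM than in Classical mono, and the direction of this step cannot be told apart from the scaling for any of the lists that follow, where 10 of 10, 12 of 13, 11 of 11 and 16 of 16 were then higher.

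The plasminogen system activates several pro-MMPs through plasmin. Of 10 genes tested from a list of 11, 5 were higher and 1 was lower in Early CMDM than in Classical mono, and 3 were higher and 4 lower in Late CMDM than in Early CMDM, where all genes had 24.2% and 20.6%, and 14.4% and 17.5%. The latter step had 1 higher and 7 lower with the leukocyte scaling. Serpinb2, an inhibitor of urokinase, was at 897, 1008 and 695 CPM in Early CMDM against 93.2 to 195 CPM in all other libraries, and was higher there than in Classical mono by 2.70 ± 0.22 (adjusted p = 2.5e-07). Plaur, the urokinase receptor, was lower in Early CMDM than in Classical mono by -1.43 ± 0.13 (adjusted p = 3.0e-07), a sign that turned with the leukocyte scaling (0.43), and higher in Resident-like than in Late CMDM by 1.14 ± 0.13 (adjusted p = 1.0e-05), or 0.32 (adjusted p = 0.089) with that scaling. Anxa2 and S100a10, which form a plasminogen-binding complex, were the most abundant of the list at 637 to 1137 CPM and 572 to 1360.2 CPM. Plau, urokinase itself, named after its values were seen, was at 81.6 to 91.8 CPM in Classical mono, 180.2 to 198 CPM in Early CMDM, 349 to 370.2 CPM in Late CMDM and 241 to 264 CPM in Resident-like, with no overlap between fractions. With the leukocyte scaling Plau differed by 0.06 (adjusted p = 0.75) between Late CMDM and Early CMDM, and Resident-like was below Early CMDM by -1.26, where TMM gave 0.44.

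Among 13 tested cofactors and surface regulators of MMPs, 3 were higher and 6 lower in Resident-like than in Late CMDM, and 4 were higher and 3 lower in Early CMDM than in Classical mono. From Early CMDM to Late CMDM 2 were higher and 5 lower. All genes had 12.7% and 15.4%, 24.2% and 20.6%, and 14.4% and 17.5% in these directions. Under the leukocyte scaling 0 were higher and 10 lower in Resident-like than in Late CMDM, and 0 higher and 11 lower in Late CMDM than in Early CMDM. Furin, the convertase that activates membrane-type MMPs, was at 125 to 168 CPM in Classical mono and 109 to 133 CPM in Early CMDM, and was higher in Late CMDM than in Early CMDM by 0.94 ± 0.12 (adjusted p = 1.7e-05) and in Resident-like than in Late CMDM by 0.35 ± 0.12 (adjusted p = 0.034). The latter call was lost without any 1 of the 6 libraries of both fractions (adjusted p 0.0548 to 0.116) and turned to -0.47 with the leukocyte scaling, with which the former was 0.08 (adjusted p = 0.65). Cd44, which docks Mmp9 at the cell surface, was at 1079 to 1388 CPM in Classical mono and 1144 to 1191 CPM in Resident-like, and at 491 to 609 CPM in both CMDM fractions, though with the leukocyte scaling Early CMDM was 0.60 above Classical mono. Thbs1, a matrix protein that binds MMPs, was lower in Late CMDM than in Early CMDM by -0.78 ± 0.19 (adjusted p = 0.0048) and in Resident-like than in Late CMDM by -1.20 ± 0.19 (adjusted p = 0.00027). Bsg, the inducer of MMPs also known as EMMPRIN, ranged from 196 to 267 CPM over the 12 libraries.

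The list of 11 cathepsins, cystatins and collagen receptors moved mostly one way in the step to Late CMDM. Of its members, 9 were higher and 1 was lower in Late CMDM than in Early CMDM, against 14.4% and 17.5% of all genes in these directions, and 6 were lower and 1 was higher in Resident-like than in Late CMDM (15.4% and 12.7%). Their median log2 fold changes were 0.89 and -0.72, beside 0.02 and 0.00 for all genes. Scaled to the leukocyte genes, 2 were higher and 1 was lower in the former step and 9 were lower in the latter. Ctsl, a lysosomal cysteine protease, was at 4137, 3592 and 4976 CPM in Late CMDM against 1593, 1212 and 2075 CPM in Early CMDM (1.38 ± 0.21, adjusted p = 0.00012), and was lower in Resident-like by -2.04 ± 0.21 (adjusted p = 4.8e-06). Ctsb, of the same family, was higher in Late CMDM than in Early CMDM by 1.19 ± 0.17 (adjusted p = 6.7e-05), and Ctss by 1.18 ± 0.19 (adjusted p = 0.00019). When scaled to leukocyte genes, both missed the threshold, at 0.36 and 0.35 (adjusted p 0.0565 and 0.0621). Cst3, a secreted cystatin that inhibits such cathepsins, was highest in Resident-like with TMM, at 3556 to 4349 CPM. Its difference from Late CMDM was 1.08, or 0.25 (adjusted p = 0.24) with the leukocyte scaling. From Early CMDM it was 1.73, or 0.02 (adjusted p = 0.90) with that scaling. In the step from Classical mono to Early CMDM the same list had 4 members higher and 3 lower (all genes 24.2% and 20.6%).

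Of the 16 ADAM and ADAMTS proteases tested, relatives of MMPs that shed surface proteins or cleave proteoglycans, 3 were higher and 4 lower in Early CMDM than in Classical mono, 4 were higher and 8 lower in Late CMDM than in Early CMDM, and 2 were higher and 3 lower in Resident-like than in Late CMDM, beside 24.2% and 20.6%, 14.4% and 17.5%, and 12.7% and 15.4% of all genes. With the leukocyte scaling 0 were higher and 12 lower in each of the last 2 steps. Adam17, the sheddase inhibited by TIMP3, was lower in Early CMDM than in Classical mono by -0.78 ± 0.12 (adjusted p = 3.9e-05), in the step in which Timp3 was higher, and was higher in Late CMDM than in Early CMDM by 0.50 ± 0.12 (adjusted p = 0.0034). Both differences changed sign with the leukocyte scaling, to 1.09 and -0.37. Adam8, a sheddase of leukocytes, was lower in Early CMDM than in Classical mono by -0.88 ± 0.12 (adjusted p = 2.4e-05), or higher by 1.01 with the leukocyte scaling. Adam15 was higher in Late CMDM than in Early CMDM by 0.59 ± 0.13 (adjusted p = 0.002), which the leukocyte scaling turned to -0.26, and Adam10 ranged from 88.3 to 121 CPM and was called in none of the 6 comparisons with TMM, but with the leukocyte scaling in 5, among them Early CMDM against Classical mono (1.83), Late CMDM against Early CMDM (-0.68) and Resident-like against Late CMDM (-1.02). Of 4 neutrophil serine proteases, 2 were tested, and Ctsg was at 0.239 to 2.64 CPM.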

How the data were processed

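Libraries of oligo(dT)-selected mRNA were analysed for 12 samples, 3 of each sorted fraction. Reads were trimmed by the authors (cutadapt 4.1) and mapped on one strand with Bowtie2 2.4.5 to the reference RNA of GRCm38. The authors deposited the counts per gene symbol, unnormalized. Such counting can split the reads of near-identical paralogs. No column of per-sample values was left unused (0 columns).

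Counts were scaled by TMM and tested with edgeR 4.0.16 (R 4.3.3). Genes were filtered by filterByExpr, which left 22118 of 37775, and the robust quasi-likelihood model had a coefficient for each of the 4 fractions and used the 12 libraries together. In each of 6 comparisons p-values were adjusted over all tested genes by the method of Benjamini and Hochberg, with a threshold of 0.05. The SE is the absolute log2 fold change divided by the square root of F. The study named TCC for its tests. Its strategy of setting called genes aside before scaling (DEGES, 3 rounds) was run within edgeR as an alternative. The model was tested on simulated counts. Positions and transcript lengths come from GENCODE M21 for GRCm38. Replicates differed by chi-square values of 4.24 to 21.9 per degree of freedom, so that none was counted as a duplicate. The replicate numbers in the labels were not used as pairs, since the labels do not say what they mark. A fit with them as a block is among the alternatives.

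The 10 members, the related and marker lists and the leukocyte scaling were chosen with earlier results of these data known. Named beside the members are up to 4 genes of each related list with the highest mean CPM, and genes whose other reason is stated. For Mmp2, Mmp8, Mmp12, Timp2 and Timp3, the 3 genes with the highest Pearson r over 12 libraries are named too. Mmp7 and Plg were not analysed here. Further alternatives were RLE size factors, scaling by total count, testing without a filter or with at least 10 counts per library throughout, DESeq2 1.42.0, fits of the 6 libraries compared, a replicate block, stricter thresholds, removal of genes above 1% of counts, and omission of each library in turn.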

Additional observations from a re-analysis of the deposited data

How the results depend on the processing

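Of 1440 member values recomputed under alternative settings, 1298 kept their direction and their side of the threshold, 45 passed it newly, 74 no longer passed it and 23 changed sign. RLE size factors and a minimum of 10 counts per library throughout changed none of the 60 member results, and DESeq2 changed 1. With 3 libraries per fraction, the SE of a log2 fold change was 0.107 to 0.130 for Mmp9 and 0.336 to 0.489 for Mmp8. These were the members with the smallest and the largest SE. The SE is not the limit of detection, and differences above it were also missed. Mmp12 in Early CMDM against Classical mono, at -0.61 ± 0.31, was not called (adjusted p = 0.13).

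The number of members called in Early CMDM against Classical mono, 5 in the report, was 2 when a log2 change of 1 or more was also required and 10 with the leukocyte scaling, where 44.9%, 20.02% and 94.3% of all tested genes were called. In Resident-like against Late CMDM it was 3 in place of 5 with an adjusted p under 0.01, when a log2 change of 1 or more was required and with no filter, 8 with the leukocyte scaling, and 3 to 7 when 1 library was left out. The shares of all genes were 28.1% as reported, then 17.3%, 10.4%, 16.02%, 70.9% and 20.9% to 29.9%. In Resident-like against Classical mono it was 4 in place of 7 with an adjusted p under 0.01 and with no filter, and 4 to 8 when 1 library was left out (all genes 23.7%, then 15.5%, 14.2% and 18.8% to 23.5%).

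The leukocyte scaling turned the sign of the log2 fold change of Mmp12 (1.27), Mmp14 (1.72) and Mmp19 (1.34) in Early CMDM against Classical mono, of Mmp8 (-0.25), Mmp19 (-0.26) and Timp1 (-0.65) in Late CMDM against Early CMDM, and of Mmp9 (-0.51) and Mmp19 (-0.58) in Resident-like against Late CMDM. It did the same for Mmp14 (0.35) in Late CMDM against Classical mono, and for Mmp8 (-0.20), Mmp13 (-1.06), Mmp19 (-0.84) and Timp1 (-1.63) in Resident-like against Early CMDM. This scaling sets the 10 leukocyte genes as constant by construction. For Timp1 in Resident-like against Early CMDM the sign also turned with total counts alone (-0.13) and with DEGES (-0.0911). On leaving out 1 library, the log2 fold change ran from -0.12 to 0.36 for Mmp2 and from -0.40 to 0.23 for Mmp14 in Early CMDM against Classical mono, from -0.0568 to 0.32 for Mmp19 in Late CMDM against Classical mono, and from -0.0892 to 0.23 for Timp1 in Resident-like against Early CMDM. None of these 4 was called with all libraries. The cause of these changes was not tested.

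With the replicate number as a block (replicate block), the number of members called was 6 in Early CMDM against Classical mono. Of all tested genes, 46.7% were called in that comparison with the block. There Timp1 passed (0.39, adjusted p = 0.0077), and in Resident-like against Late CMDM Mmp2 was lost (adjusted p = 0.053) and Mmp8 gained (adjusted p = 0.027). Timp1 also passed in Resident-like against Classical mono (adjusted p = 0.0061), and no other member call changed. Same-numbered libraries deviated together at a correlation over 0.1 in 4 of 18 pairs, from -0.0987 to 0.248. Libraries with different numbers were not compared in this way, so these values do not tell whether the numbers are a pairing.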
